A study of Mus musculus with 8 samples.

Results

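The genes described here encode proteins of synaptic vesicles and of the machinery that releases them, 46 genes in all. The rule is a list of gene names and uses no measured value, but the names were chosen with earlier results of these data known. They fall into 23 vesicle proteins, 10 genes of the fusion machinery, 9 of the active zone and 4 of endocytosis. Of the 46, 45 had a probe that the gene table could name, and all 45 were tested among 16620 genes. The exception was Syt5, a synaptotagmin, which was not analysed here.

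A nerve terminal stores neurotransmitter in vesicles, which dock at the active zone, a protein scaffold facing the synaptic cleft. Calcium entering the terminal binds synaptotagmin, and SNARE proteins on the vesicle and on the plasma membrane zip together and fuse the membranes. The ATPase NSF with its SNAP adaptors takes the spent SNARE complexes apart, and dynamin and its partners retrieve the membrane for reuse. In the hippocampus the bulk of this machinery serves excitatory terminals that release glutamate.

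The study compared hippocampi of 4 female mice given hydroxyurea (45 mg/kg/day in the drinking water) with hippocampi of 4 untreated females, and asked which transcripts differed. Hydroxyurea inhibits ribonucleotide reductase, the enzyme that supplies DNA precursors. Dosing started between 9 and 14 weeks of age and ran for 10 weeks, which the labels also give as 2.5 months. Hydroxyurea mice 1 and 2 were 24 weeks old at the end, and Hydroxyurea mice 3 and 4 and the 4 Control mice were 19 weeks old. Within the Hydroxyurea group, age at the end and age at the start of treatment cannot be told apart. All 8 mice were nontransgenic littermates from a colony carrying the APPswe and PSEN1dE9 transgenes on a C57BL/6J background, so no mouse carried either transgene.

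Each mouse had 1 single-colour Agilent array, and values are log2 signals with the array's 75th percentile set to 0. That percentile was 1052.3 to 2162.1 signal units on the Hydroxyurea arrays and 1677.1 to 2417.3 on the Control arrays, with Hydroxyurea 2 the dimmest. Spots of repeated probes varied by a median 10.5% on the Control 1 array, against 2.97% to 3.51% on the other 7. The Hydroxyurea arrays lay in row 2 of the slide and the Control arrays in row 1, so row and treatment cannot be told apart. Of 16 markers of hippocampal subfields, 15 were measured well enough to be tested, beside 16620 of 21368 genes named on the array. All 15 choroid plexus markers were tested too, so being measured does not check the label of hippocampus. Of 18 markers of thalamus and habenula, 14 were tested, which does not tell what tissue the RNA came from. Their mean deviation, the log2 value minus each gene's mean over the 8 mice, averaged over the list, was 0.69 in Hydroxyurea 3 and between -0.28 and 0.19 in the other 7.

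None of the 45 genes passed an adjusted p of 0.05 in the comparison of Hydroxyurea with Control mice (limma, Benjamini-Hochberg over all genes), and the smallest adjusted p among them was 0.494. Over all 16620 genes 0% were called higher and 0% lower. The log2 fold change was above 0 for 31 of the 45 (68.9%) and below 0 for 14, with a median of 0.073, beside 48.7% of all genes above 0 and a median of -0.0038. That median was -0.0090 with each array centred on its median, where the median of all genes was -0.086, and 0.033 to 0.12 when an array was left out. At an unadjusted p below 0.05, 1 of the 45 was higher and 0 were lower, while 3.53% of all genes were higher and 6.36% lower. The 4 Hydroxyurea values lay wholly above the 4 Control values for 1 of the 45, Napb, and wholly below for 0, beside 2.38% and 5.08% of all genes. Where such a bulk value differs, fewer cells of a type and less RNA per cell cannot be told apart.

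The 95% interval excluded a 1.5-fold difference in either direction for 36 of the 45 genes (80%), as it did for 77.7% of all genes. The SD pooled within the groups had a median of 0.16 over these genes and 0.15 over all genes on the log2 scale.

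**Figure D1:**
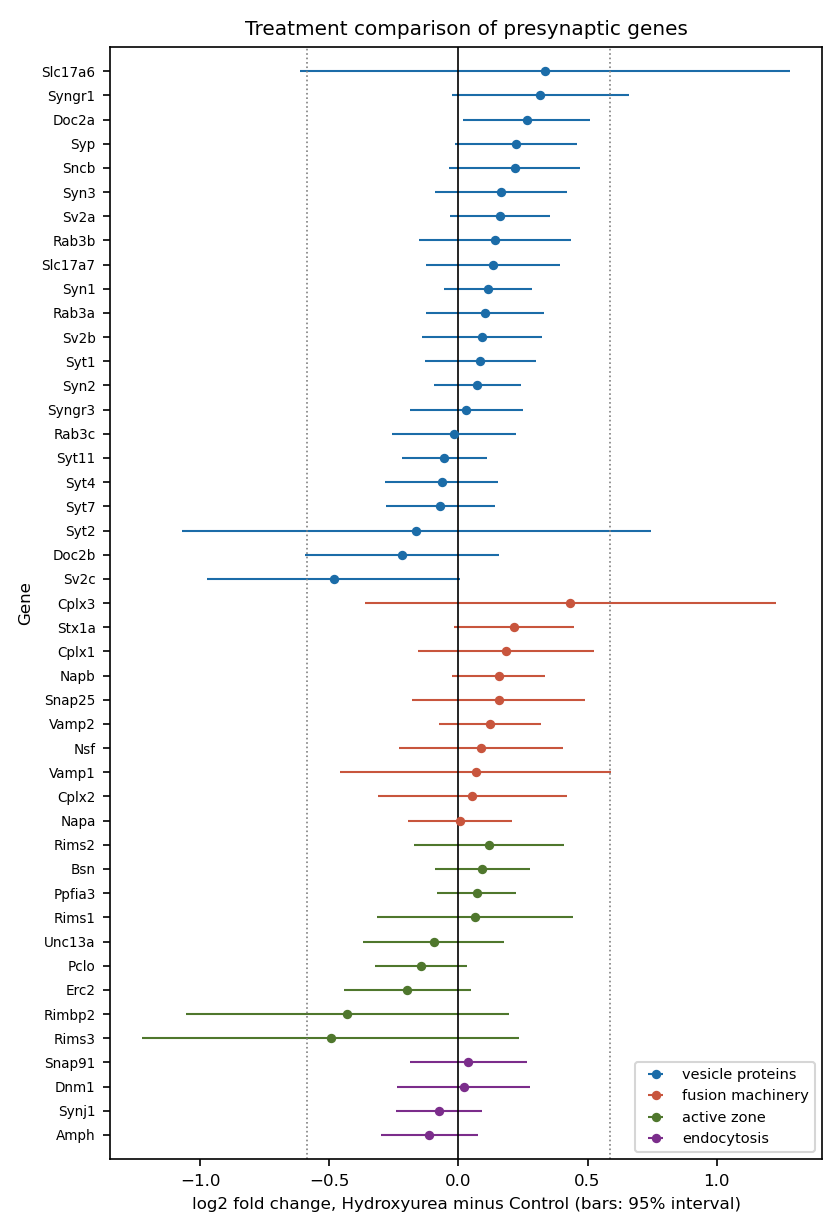
Log2 fold change of the 45 genes tested, Hydroxyurea minus Control (x axis), with the gene on the y axis, points for the limma estimate and bars for its 95% interval, coloured by class; dotted lines mark a 1.5-fold difference. The fusion genes all lie right of 0, the active zone genes on both sides, and no gene passed an adjusted p of 0.05.

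The classes lay at different places around 0. All 10 fusion genes had a log2 fold change above 0 (median 0.14), as did 15 of 22 vesicle protein genes (median 0.097). Of the active zone genes 4 lay above 0 and 5 below (median -0.096), and of the endocytosis genes 2 above and 2 below (median -0.027). The active zone median depended on dim signal. Among active zone genes well above background on every array, 4 lay above 0 and 4 below (median -0.016). With normexp background correction the active zone median was -0.018. None of these medians was tested, and the fusion count was 7 to 10 under other processing. It was 7 of 10 with each array centred on its median, with array weights, without Control 3, and without Control 1 and Hydroxyurea 2 together.

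The mice within a group were far from alike. Averaged over the 10 fusion genes, the deviation was -0.0020, 0.10, 0.23 and -0.030 in Hydroxyurea mice 1 to 4, against 0.097, -0.086, -0.12 and -0.19 in Control mice 1 to 4. Control 1 stood above Hydroxyurea 1 and 4, so the groups overlapped. For the 22 vesicle protein genes the Hydroxyurea mice had -0.019, 0.012, 0.16 and -0.023, and the Control mice 0.097, -0.049, -0.094 and -0.079. Hydroxyurea 3 was again the highest mouse and Control 1 the next. The genes of a class did not move together in Control 1. It was the highest mouse for 5 of these 22 genes and the lowest for 5. For the fusion genes it was the highest for 2 and the lowest for 2. Syt2, which was dim, measured -3.49 in Control 1, against -5.31 to -4.40 in the other mice. The 9 active zone genes gave -0.045, -0.012, 0.045 and -0.21 in Hydroxyurea mice and 0.17, -0.024, 0.059 and 0.023 in Control mice. Here Hydroxyurea 4 was the lowest of the 8 and Control 1 the highest, though Control 1 was the highest mouse for only 2 of these 9 genes.

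**Figure D2:**
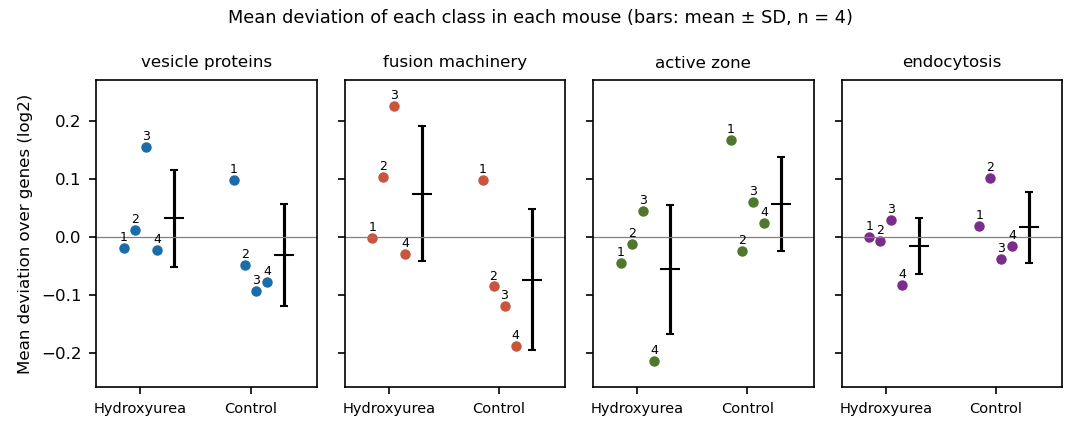
Mean deviation of each class in each mouse (y axis, log2 value minus the gene's mean over 8 mice, averaged over the class), Hydroxyurea mice left of Control mice; numbers are mouse numbers and bars the mean ± SD of 4 mice. The group means of the fusion genes were 0.074 ± 0.12 in Hydroxyurea and -0.074 ± 0.12 in Control mice, and Control 1 lies among the Hydroxyurea mice for the vesicle proteins and the fusion machinery.

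The mice differed in how many genes they had above the mean. Hydroxyurea 3 was above a gene's own mean for 37 of the 45 genes, Hydroxyurea 2 for 29, Hydroxyurea 1 for 23 and Hydroxyurea 4 for 16. Among the Control mice, Control 1 was above it for 28, Control 2 for 27, Control 4 for 14 and Control 3 for 13. Hydroxyurea 3 was the lowest mouse for 0 of the 45 genes, whereas over all genes it was the lowest for 6.15%. Hydroxyurea 4 was the lowest mouse for 8 of the 45 (17.8%, beside 13.1% of all genes), of which 5 were among the 9 active zone genes. Control 1 and Control 3 were each the lowest for 9 of the 45, beside 21.0% and 19.8% of all genes.

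**Figure D3:**
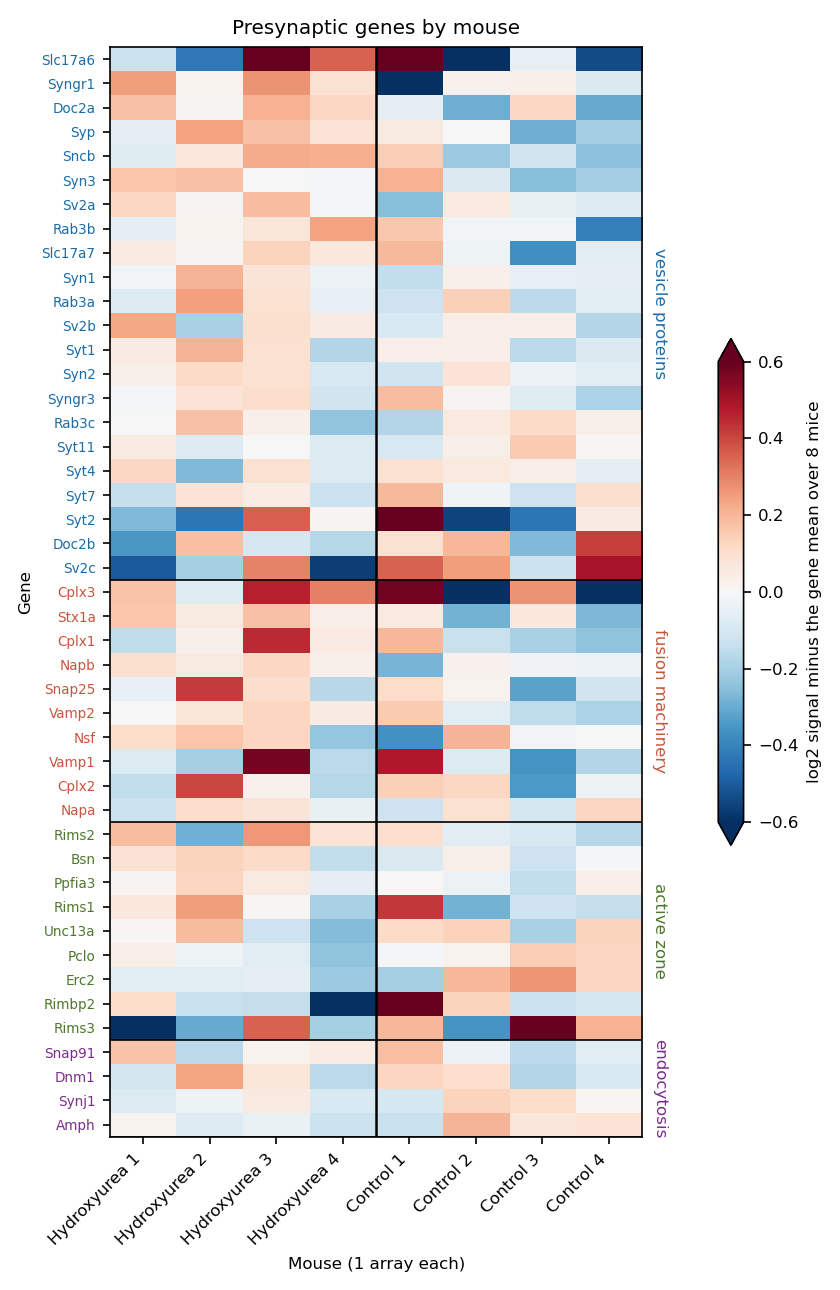
Log2 value of each gene minus its mean over the 8 mice, drawn as colour from -0.6 to 0.6, with genes down the page by class and mice across, Hydroxyurea left of the line and Control right. Hydroxyurea 3 is above the gene's mean for 37 of 45 genes and Control 3 for 13, while Slc17a6, Syt2, Cplx3 and Vamp1 are high in Hydroxyurea 3 and Control 1.

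Among the vesicle proteins, the synapsins coat the vesicle and tether it to the reserve pool. Syn1, synapsin 1, measured 5.93, 6.15, 6.02 and 5.91 in Hydroxyurea mice, against 5.80, 5.97, 5.90 and 5.89 in Control mice. Hydroxyurea 2 and 3 stood above all Control mice and the rest overlapped. Syn1 had a log2 fold change of 0.11 ± 0.073 (SE, adjusted p = 0.617), and an exact two-sided permutation test gave p = 0.143. Syn2 and Syn3 had log2 fold changes of 0.073 ± 0.073 and 0.17 ± 0.11. A second Syn2 probe, made to another transcript record, gave 0.17 ± 0.070 (unadjusted p = 0.0439), against 0.073 for the probe that stood for the gene.

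The promoter of Syn1 is shown because it held matches both to RE1, the element bound by REST, a repressor of neuronal genes in other cell types, and to the cAMP response element. The window runs from 250 bases before to 50 after the RefSeq start (GRCm38.p6, chrX:20920869-20921168, minus strand). Capitals mark the RE1 match and, after it, the cAMP response element.
Syn1: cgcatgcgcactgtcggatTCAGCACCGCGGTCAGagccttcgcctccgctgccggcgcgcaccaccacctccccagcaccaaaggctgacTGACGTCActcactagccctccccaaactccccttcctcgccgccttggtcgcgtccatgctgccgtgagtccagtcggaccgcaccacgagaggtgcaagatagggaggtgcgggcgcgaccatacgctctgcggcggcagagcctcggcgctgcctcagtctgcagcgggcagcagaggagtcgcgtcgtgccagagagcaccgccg
RE1 was searched on both strands as its 16-base consensus with up to 1 mismatch. It matched 4 of 45 windows of these genes (8.89%), those of Syn1, Slc17a6, Vamp1 and Erc2, and 332 of all 32851 windows (1.01%). That consensus was set after a longer, stricter form had matched Syn1 alone, so these shares follow a choice made with matches in view. The cAMP response element, TGACGTCA, reads the same on both strands and occurred in the windows of Syn1 and Napa, 4.44% of these windows beside 1.79% of all. A match is a description of the letters, not a site or a cause. Windows were on hand for 36 of the 46 genes, 45 windows in all, and not for Doc2a, Doc2b, Rims2, Snap25, Syn3, Syngr3, Syt4, Syt5, Syt7 and Vamp2.

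Membrane proteins of the vesicle came next. Syp, synaptophysin, the abundant tetraspan protein used to stain synapses, measured 5.62, 5.91, 5.85 and 5.75 in Hydroxyurea mice and 5.73, 5.68, 5.38 and 5.47 in Control mice. Hydroxyurea 2, 3 and 4 exceeded every Control mouse, and Hydroxyurea 1 did not. Its log2 fold change was 0.22 ± 0.10 (adjusted p = 0.520, exact permutation p = 0.114). Syngr1, a synaptogyrin of the same tetraspan family, had 3.003, 2.775, 3.023 and 2.846 in Hydroxyurea mice and 2.151, 2.779, 2.784 and 2.667 in Control mice. Its log2 fold change of 0.32 ± 0.15 (adjusted p = 0.523) included the low Control 1, and without that array it was 0.17. A second Syngr1 probe gave 0.092 ± 0.072. Syngr3 had 0.030 ± 0.095.

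The SV2 proteins are transporter-like vesicle glycoproteins, and SV2A is the target of the antiepileptic levetiracetam. Sv2a measured 3.208, 3.098, 3.265 and 3.077 in Hydroxyurea mice, against 2.825, 3.142, 3.036 and 3.005 in Control mice. Its log2 fold change was 0.16 ± 0.083 (adjusted p = 0.556), with Control 2 inside the Hydroxyurea range. Sv2b had 0.091 ± 0.10. Sv2c, the isoform of the basal ganglia, was close to background, well above it on 2 of 4 Hydroxyurea arrays and 4 of 4 Control arrays. It measured -5.34, -5.04, -4.54 and -5.40 in Hydroxyurea mice and -4.49, -4.59, -4.97 and -4.34 in Control mice. The log2 fold change of -0.48 ± 0.21 (adjusted p = 0.510) was the lowest among the vesicle proteins, and with normexp background correction it was 0.019.

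Doc2a and Doc2b are calcium sensors of spontaneous and asynchronous release. Doc2a was the gene with the smallest p among the 45. It measured 0.85, 0.68, 0.88 and 0.79 in Hydroxyurea mice and 0.61, 0.38, 0.79 and 0.37 in Control mice, with Control 3 as high as Hydroxyurea 4. Doc2a had a log2 fold change of 0.26 ± 0.11 (unadjusted p = 0.0390, adjusted p = 0.494). Doc2b lay on the other side of 0, at -0.22 ± 0.16. Sncb, beta-synuclein, a small protein of terminals, had -0.095, 0.040, 0.20 and 0.19 in Hydroxyurea mice and 0.12, -0.24, -0.14 and -0.27 in Control mice. Control 1 stood among the Hydroxyurea mice, and the log2 fold change was 0.22 ± 0.11 (adjusted p = 0.548).

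Synaptotagmin 1, the fast calcium sensor of forebrain synapses, is encoded by Syt1. Its values were 6.56, 6.72, 6.61 and 6.34 in Hydroxyurea mice, against 6.55, 6.55, 6.35 and 6.43 in Control mice. Hydroxyurea 4 was the lowest of the 8 and the groups overlapped, with a log2 fold change of 0.084 ± 0.093 (adjusted p = 0.777, exact permutation p = 0.429). The other synaptotagmins lay below 0: Syt4 at -0.065 ± 0.095, Syt7 at -0.071 ± 0.091, Syt11 at -0.054 ± 0.071 and Syt2 at -0.16 ± 0.39. The Rab3 GTPases, which guide vesicles to the active zone, had 0.10 ± 0.099 for Rab3a, 0.14 ± 0.13 for Rab3b and -0.018 ± 0.10 for Rab3c.

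The vesicular glutamate transporters load vesicles with glutamate. Slc17a7, which encodes VGLUT1, the form of hippocampal and cortical pyramidal cells, measured 2.60, 2.57, 2.68 and 2.61 in Hydroxyurea mice and 2.74, 2.52, 2.18 and 2.48 in Control mice. The Hydroxyurea mice were close together, at 2.61 ± 0.048 (SD, n = 4), and the Control mice were spread around them, at 2.48 ± 0.23. Slc17a7 thus had a log2 fold change of 0.13 ± 0.11 (adjusted p = 0.704), with an exact permutation p of 0.343, and it was 0.034 without Control 3 and 0.22 without Control 1. Slc17a6, which encodes VGLUT2, the form of thalamic and other subcortical neurons, measured 0.48, 0.18, 1.48 and 0.96 in Hydroxyurea mice and 1.43, -0.30, 0.56 and 0.072 in Control mice. Its log2 fold change of 0.33 ± 0.41 (95% interval -0.61 to 1.28, adjusted p = 0.799) was small beside a spread of over 1 log2 unit within each group. It was 0.086 without Control 2, 0.099 without Hydroxyurea 3, 0.21 without Control 4, 0.53 without Hydroxyurea 2, 0.67 without Control 1 and 0.94 with array weights.

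The fusion machinery begins with the SNARE proteins. Stx1a, syntaxin 1A of the plasma membrane, measured 2.08, 1.96, 2.09 and 1.95 in Hydroxyurea mice, against 1.97, 1.63, 1.97 and 1.64 in Control mice. Control 1 and 3 stood among the Hydroxyurea mice and Control 2 and 4 below them. For Stx1a the log2 fold change was 0.22 ± 0.10 (adjusted p = 0.523, exact permutation p = 0.171). Snap25, its partner on the plasma membrane, measured 6.30, 6.77, 6.46 and 6.18 in Hydroxyurea mice and 6.46, 6.37, 6.03 and 6.23 in Control mice. Hydroxyurea 2 was the highest and Control 3 the lowest, and the log2 fold change was 0.16 ± 0.15 (adjusted p = 0.735, exact permutation p = 0.429). It was 0.041 without Hydroxyurea 2, 0.074 without Control 3 and 0.24 without Hydroxyurea 4.

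The vesicle SNARE Vamp2, synaptobrevin 2, had 5.74, 5.82, 5.88 and 5.80 in Hydroxyurea mice and 5.91, 5.69, 5.59 and 5.56 in Control mice. Every Control mouse except Control 1 lay below all Hydroxyurea mice. For Vamp2 the log2 fold change was 0.12 ± 0.086 (adjusted p = 0.644, exact permutation p = 0.200). Vamp1, the form that prevails in brainstem and spinal cord, was high in Hydroxyurea 3 (3.23) and Control 1 (3.13) and between 2.30 and 2.57 in the other 6 mice, with a log2 fold change of 0.066 ± 0.23.

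Complexins clamp the assembled SNAREs until calcium arrives. Cplx3, the form best known from retinal ribbon synapses, measured -1.49, -1.73, -1.19 and -1.36 in Hydroxyurea mice and -1.08, -2.43, -1.39 and -2.61 in Control mice. Control 2 and 4 were low and Control 1 was the highest of the 8. This gave a log2 fold change of 0.43 ± 0.35 (95% interval -0.36 to 1.23, adjusted p = 0.689), the highest of the 45 and among the least certain. It was 0.19 without Control 4, 0.25 without Control 2, 0.70 without Control 1 and 0.96 with array weights. Cplx1 had 0.18 ± 0.15 and Cplx2 0.054 ± 0.16, and the 4 Cplx2 probes ranged only from 0.027 to 0.10.

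The proteins that disassemble SNAREs gave the only gene whose groups did not overlap. Napb, beta-SNAP, the adaptor of NSF found in brain, measured 4.828, 4.787, 4.857 and 4.764 in Hydroxyurea mice and 4.451, 4.758, 4.708 and 4.697 in Control mice. The lowest Hydroxyurea mouse and the highest Control mouse were adjacent, and Control 1 was the lowest. Napb had a log2 fold change of 0.16 ± 0.078 (adjusted p = 0.548), or 0.088 without Control 1. A second Napb probe gave 0.098 ± 0.095. Napa, the relative of Napb, had 0.0065 ± 0.088, and a second Napa probe -0.052 ± 0.20. Nsf, the ATPase itself, had 0.088 ± 0.14.

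Promoters of 3 fusion genes are shown as examples of GC boxes, the commonest match among the presynaptic genes. Of the fusion genes with a window, Stx1a, Cplx1, Vamp1 and Napa held a GC box, and Cplx2, Cplx3, Napb and Nsf did not. Over all the presynaptic genes, 28 of the 36 with a window held one. Each window is 300 bases, 250 before to 50 after the RefSeq start of build GRCm38.p6: Stx1a at chr5:135023232-135023531 on the plus strand, Cplx1 at chr5:108549978-108550277 on the minus strand and Vamp1 at chr6:125215331-125215630 on the plus strand. Capitals mark GC boxes (GGGCGG, or CCGCCC where the match is on the other strand) and, in Vamp1, CCAAT boxes, which read ATTGG on the other strand, and an RE1 match.
Stx1a: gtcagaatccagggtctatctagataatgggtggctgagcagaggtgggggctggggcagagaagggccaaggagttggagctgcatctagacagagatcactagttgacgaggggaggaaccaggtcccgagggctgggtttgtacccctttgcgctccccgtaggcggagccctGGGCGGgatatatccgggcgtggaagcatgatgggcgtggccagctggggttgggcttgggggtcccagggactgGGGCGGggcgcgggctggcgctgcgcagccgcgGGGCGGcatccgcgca
Cplx1: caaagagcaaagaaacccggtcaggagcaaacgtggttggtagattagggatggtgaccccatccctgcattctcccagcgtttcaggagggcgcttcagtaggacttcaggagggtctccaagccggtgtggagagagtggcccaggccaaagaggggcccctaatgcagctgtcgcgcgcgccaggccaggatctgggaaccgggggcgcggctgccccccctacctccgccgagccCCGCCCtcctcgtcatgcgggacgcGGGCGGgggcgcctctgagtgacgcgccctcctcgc
Vamp1: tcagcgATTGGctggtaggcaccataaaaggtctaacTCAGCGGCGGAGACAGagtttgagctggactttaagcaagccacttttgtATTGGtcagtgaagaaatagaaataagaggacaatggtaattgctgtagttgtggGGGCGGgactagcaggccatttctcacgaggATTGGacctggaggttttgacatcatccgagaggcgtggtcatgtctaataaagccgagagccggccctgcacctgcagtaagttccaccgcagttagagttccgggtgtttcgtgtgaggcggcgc
Stx1a had 3 GC boxes, Cplx1 2 and Vamp1 1 beside 3 CCAAT boxes and 1 RE1 match. A GC box on either strand stood in 64.4% of the windows of the presynaptic genes and in 35.7% of all windows. The windows of the presynaptic genes had a median GC content of 62.3%, against 52.7% for all windows. CCAAT was less frequent in them (24.4% beside 37.4%), and so was TATAAA (6.67% beside 13.6%). The motifs do not overlap one another in the printed windows, and no difference in these shares was tested.

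The active zone genes lay on both sides of 0. Bsn, bassoon, a giant scaffold protein, measured 3.93, 3.97, 3.96 and 3.70 in Hydroxyurea mice and 3.75, 3.88, 3.72 and 3.83 in Control mice. Hydroxyurea 1 to 3 lay above all Control mice and Hydroxyurea 4 below them. For Bsn the log2 fold change was 0.093 ± 0.080 (adjusted p = 0.712, exact permutation p = 0.257). Pclo, piccolo, its large relative, measured 4.34, 4.28, 4.24 and 4.06 in Hydroxyurea mice and 4.29, 4.32, 4.45 and 4.43 in Control mice. Hydroxyurea 1 stood among the Control mice, and the log2 fold change was -0.14 ± 0.078 (adjusted p = 0.563).

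The 4 Pclo probes differed in sign. The probe reported above and another were made to the same transcript record and gave -0.14 ± 0.083 and 0.24 ± 0.20 in the fit of every probe. Both probes to a second record gave values below 0, at -0.34 ± 0.13 (unadjusted p = 0.0298) and -0.18 ± 0.14. Of the 13 genes with more than 1 probe tested, the probes of 11 shared a sign, and those of Pclo and Napa did not. A shared sign did not mean a like size. The second probe lay closer to 0 for Syngr1, Erc2, Napb, Synj1 and Syt7, and farther from it for Syn2, Dnm1, Ppfia3 and Rims1.

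Erc2, also called CAST, binds RIM and Munc13 at the active zone. It measured 4.61, 4.61, 4.62 and 4.46 in Hydroxyurea mice and 4.48, 4.88, 4.94 and 4.81 in Control mice. Control 2, 3 and 4 lay above every Hydroxyurea mouse, and Control 1 near the lowest. Erc2 had a log2 fold change of -0.20 ± 0.11 (adjusted p = 0.563). A second Erc2 probe gave -0.040 ± 0.22. Unc13a, which encodes Munc13-1, the factor that primes vesicles, had -0.096 ± 0.12, and the RIM scaffold genes Rims1 and Rims2 had 0.065 ± 0.16 and 0.12 ± 0.13. Ppfia3, a liprin-alpha, had 0.070 ± 0.067.

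Both active zone genes with the largest values below 0 were dim. Rims3, a short RIM, measured -5.16, -4.62, -3.96 and -4.51 in Hydroxyurea mice and -4.12, -4.67, -3.38 and -4.11 in Control mice, and was well above background on 3 of 4 Hydroxyurea arrays. Its log2 fold change of -0.49 ± 0.32 (adjusted p = 0.614) was 0.097 with normexp background correction. Rimbp2, which links RIM to calcium channels, measured -3.94, -4.19, -4.20 and -4.75 in Hydroxyurea mice and -3.09, -3.92, -4.18 and -4.16 in Control mice. Control 1 was the highest and Hydroxyurea 4 the lowest of the 8. The log2 fold change was -0.43 ± 0.27 (adjusted p = 0.609), and -0.18 without Control 1.

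The endocytosis genes had log2 fold changes between -0.11 and 0.039. Dnm1, dynamin 1, which pinches vesicles off the membrane, measured 7.07, 7.42, 7.26 and 7.02 in Hydroxyurea mice and 7.31, 7.28, 7.01 and 7.09 in Control mice. The groups covered almost the same range, and the log2 fold change was 0.020 ± 0.11 (95% interval -0.24 to 0.28, adjusted p = 0.963, exact permutation p = 0.886). Its sign turned in 9 of 22 other settings. Amph, amphiphysin, which brings dynamin to the membrane, had 5.57, 5.47, 5.51 and 5.42 in Hydroxyurea mice and 5.42, 5.75, 5.62 and 5.63 in Control mice. Apart from Control 1 the Control mice lay above all Hydroxyurea mice, and the log2 fold change was -0.11 ± 0.081 (adjusted p = 0.654). Synj1, the lipid phosphatase synaptojanin 1, measured 5.04, 5.09, 5.18 and 5.03 in Hydroxyurea mice and 5.02, 5.26, 5.23 and 5.14 in Control mice. Its log2 fold change was -0.074 ± 0.072 (adjusted p = 0.746), with overlapping groups. Snap91, the clathrin adaptor AP180, had 0.039 ± 0.098.

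The 9 exact permutation tests named above run over 70 assignments and cannot go below p = 0.0286. Adjusted over those 9 genes, their p-values were 0.450 for Syn1, Syp, Stx1a and Vamp2, 0.463 for Bsn, 0.483 for Slc17a7, Syt1 and Snap25 and 0.886 for Dnm1.

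Hydroxyurea 2 was the highest mouse most often, for 12 of the 45 genes (26.7%, beside 15% of all genes). Hydroxyurea 3 and Control 1 were each the highest for 10 (22.2%, beside 8.26% and 20.6% of all genes). Some genes had their 2 highest values in the same 2 mice, Hydroxyurea 3 and Control 1, 1 from each group. These were the 2 highest of the 8 mice for 8 of the 45 genes (17.8%), beside 5.54% of 16586 genes with a value on every array. The 8 were Slc17a7, Slc17a6, Syngr3, Syt2, Vamp1, Vamp2, Cplx1 and Cplx3. Both mice were chosen after the values were seen, so this is a description with no test.

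Of these, Syt2, the calcium sensor of fast synapses of the brainstem and of parvalbumin interneurons, measured -5.02, -5.19, -4.40 and -4.74 in Hydroxyurea mice and -3.49, -5.31, -5.19 and -4.70 in Control mice, with a log2 fold change of -0.16 ± 0.39 (adjusted p = 0.906). It was well above background on 3 of 4 Hydroxyurea arrays, and without Control 1 its log2 fold change was 0.23. Cplx1, complexin 1, measured 4.96, 5.14, 5.56 and 5.16 in Hydroxyurea mice, against 5.31, 4.98, 4.92 and 4.87 in Control mice. Pvalb, parvalbumin, a calcium buffer of fast-spiking interneurons and of some thalamic neurons, was highest in the same mice, with 2.61, 2.93, 3.72 and 3.02 in Hydroxyurea mice and 3.46, 2.93, 2.64 and 2.88 in Control mice. It was picked after its values were seen. The 11 interneuron markers tested, Pvalb among them, deviated by -0.074, 0.033, 0.12 and 0.012 in Hydroxyurea mice. In Control mice they deviated by -0.044, 0.044, -0.046 and -0.047. Hydroxyurea 3 was thus the highest mouse for that list, but Control 1 was below 0.

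Markers of neighbouring tissue moved with part of this. The 14 thalamus and habenula markers deviated by 0.016, -0.27, 0.69 and 0.19 in Hydroxyurea mice and by -0.22, -0.28, 0.14 and -0.27 in Control mice. Hydroxyurea 3 was the highest mouse for 7 of the 14 and the lowest for 1, Gpr151, and Control 1 was the highest for 0, the second highest for 3 and the lowest for 2. Tnnt1 measured 3.19 in Hydroxyurea 3 and between -0.76 and 0.33 in the other mice, whereas Rora was high in both, at 1.28 in Hydroxyurea 3 and 1.14 in Control 1. Without Hydroxyurea 3 the median log2 fold change of the fusion genes was 0.083, with 8 of 10 above 0, and 27 of the 45 genes were above 0. The part of these markers in the presynaptic values was not tested.

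**Figure D4:**
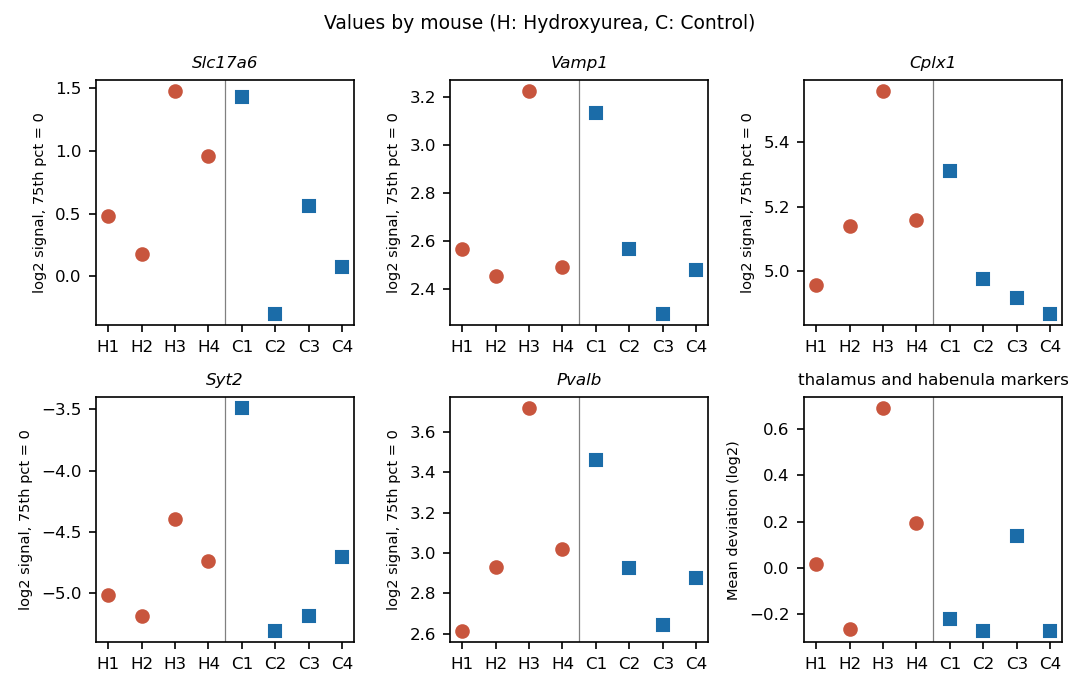
Log2 signal (75th percentile of the array = 0) of Slc17a6, Vamp1, Cplx1, Syt2 and Pvalb, and the mean deviation of 14 thalamus and habenula markers (last panel), on the y axes, with Hydroxyurea mice (H, circles) left of Control mice (C, squares). The genes are highest in Hydroxyurea 3 and Control 1, while the thalamic markers reach 0.69 in Hydroxyurea 3 and -0.22 in Control 1.

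Other cell contents were compared in the same way. The 15 neuronal markers lay evenly around 0, with 7 above and 8 below and a median log2 fold change of -0.00038, and they deviated by -0.0010, -0.0080, 0.095 and -0.067 in Hydroxyurea mice and 0.079, 0.0050, -0.071 and -0.033 in Control mice. Hydroxyurea 3 and Control 1 were thus the highest mice for this list as well. The 9 striatal markers deviated by 0.043 to 0.14 in Hydroxyurea mice and by -0.18 to 0.022 in Control mice, without overlap. The 15 hippocampal subfield markers tested had 3 values above 0 and 12 below (median log2 fold change -0.12), and deviated by -0.016, 0.11, -0.060 and -0.23 in Hydroxyurea mice and by 0.079, 0.10, -0.18 and 0.19 in Control mice. Hydroxyurea 4, the lowest mouse for the active zone genes, was the lowest for these markers too. The 15 choroid plexus markers spread from -1.19 to 2.78 in Hydroxyurea mice and from -2.18 to 0.87 in Control mice, with Hydroxyurea 4 the highest. Their part in the presynaptic values was not tested.

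Beyond these 45, a further list of 76 presynaptic genes, covering other SNAREs, clathrin, the vesicle proton pump, calcium channels and neurexins, lay closer to an even split. Of these 42 (55.3%) had a log2 fold change above 0 and 34 below, with a median of 0.015. None was called at an adjusted p of 0.05. At an unadjusted limma p below 0.05, 4 of the 76 were higher and 2 lower, beside 3.53% and 6.36% of all genes. The groups did not overlap for 2, both lower, beside 5.08% of all genes.

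Those 2 were the tomosyns, soluble SNARE-like proteins that hold back fusion by occupying syntaxin. Stxbp5 measured 0.91 to 1.07 in Hydroxyurea mice, against 1.09 to 1.36 in Control mice. Stxbp5l measured 2.66, 2.54, 2.51 and 2.52 in Hydroxyurea mice, against 3.07, 2.71, 2.73 and 2.81 in Control mice. Their log2 fold changes were -0.26 ± 0.074 (adjusted p = 0.452) and -0.27 ± 0.091 (adjusted p = 0.476). Neither passed the threshold. The next lowest p belonged to Cltb, a clathrin light chain, at -0.13 ± 0.070 (adjusted p = 0.567).

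Among values above 0, the smallest p belonged to Atp6v0a1, a subunit of the vesicle proton pump, with a log2 fold change of 0.17 ± 0.070 (adjusted p = 0.494). Syt9, a synaptotagmin that triggers fast release, followed at 0.74 ± 0.30 (adjusted p = 0.494) and Rims4, another short RIM, at 0.28 ± 0.11 (adjusted p = 0.494). Slc32a1, the vesicular transporter for GABA, had 0.058 ± 0.092.

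Within the Hydroxyurea group, the mice of 24 weeks were set against those of 19 weeks, with 2 mice of each age and the spread taken from all 8 arrays. Of the 45 genes 23 had a higher mean at 24 weeks and 22 a lower mean, with a median log2 difference of 0.0022. The split turned with the 19-week mouse left out: 32 were above 0 without Hydroxyurea 3 (median 0.076) and 14 without Hydroxyurea 4 (median -0.067). None had an adjusted or an unadjusted p below 0.05, while 0% of all genes passed the adjusted threshold, and 1.26% and 1.44% had an unadjusted p below 0.05 above and below 0. An effect of age and one of a later start cannot be told apart here.

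Of the active zone genes 7 of 9 were above 0 (median 0.12), beside 44.5% of all genes. The class deviated by -0.045 and -0.012 in the 24-week mice, against 0.045 and -0.21 in the 19-week mice, so the ages overlapped and Hydroxyurea 4 was the low mouse. Unc13a, the priming factor gene, had -1.92 and -1.74 at 24 weeks, against -2.06 and -2.19 at 19 weeks, a log2 difference of 0.29 ± 0.14. Pclo had 0.16 ± 0.10 and Rab3c 0.19 ± 0.14. Among differences below 0, Slc17a6 had 0.48 and 0.18 at 24 weeks and 1.48 and 0.96 at 19 weeks, a log2 difference of -0.89 ± 0.52. Cplx1 had -0.31 ± 0.19, and Rims3 -0.65 ± 0.41. The adjusted p of these 6 genes was 0.9999 each.

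The class medians were also compared across other ways of processing the arrays. The fusion median was above 0 and the active zone median below 0 as reported and in all 21 other settings that give a log2 scale. The medians were 0.057 to 0.21 for fusion genes and -0.18 to -0.016 for active zone genes. These settings draw on the same 8 arrays and are not separate evidence. No filter, outlier spots kept, a replicate block, and limma's trend and robust options returned the reported medians, 0.139 and -0.096. Age as a covariate and 19-week mice alone both gave 0.154 and -0.168. Centring each array on its median moved the median of all genes to -0.086, so that 29.6% of all genes lay above 0, and then 22 of the 45 presynaptic genes did. In that setting the fusion median was 0.057 and the active zone median -0.18. In the authors' value table of z scores the active zone turned, with 5 of 9 genes above 0, as did endocytosis, with 4 of 4, while the fusion genes had 10 of 10.

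**Figure D5:**
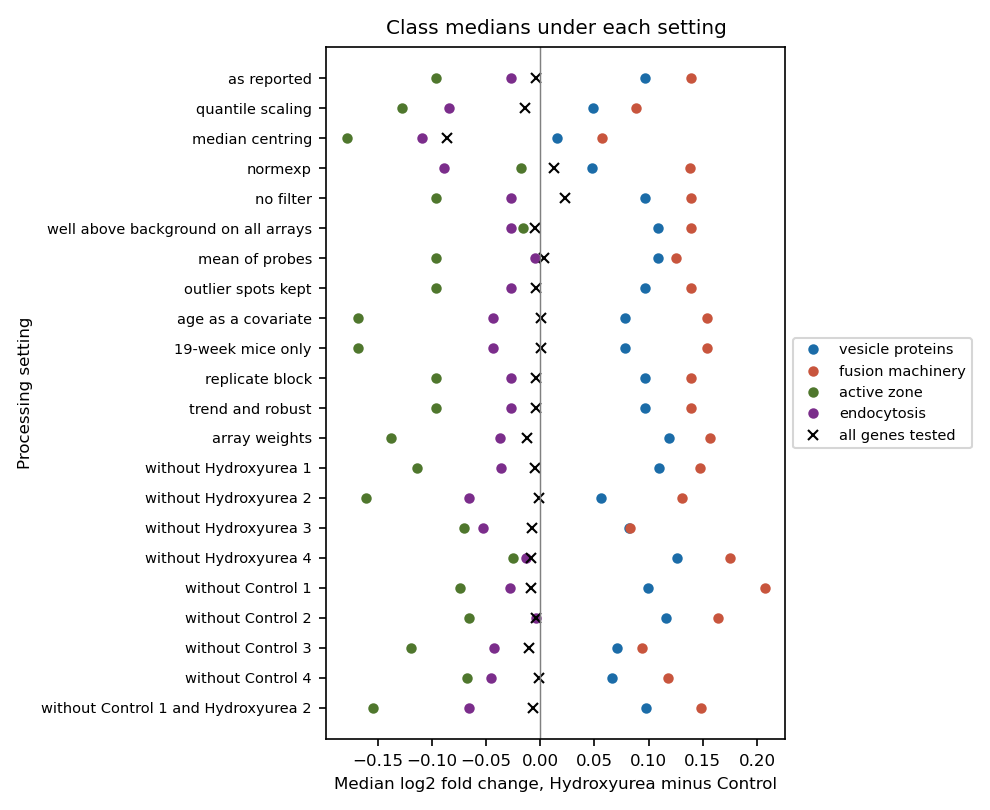
Median log2 fold change, Hydroxyurea minus Control (x axis), of the 4 classes (circles) and of all genes tested (crosses) under each processing setting (y axis). The fusion median lies between 0.057 and 0.21 and the active zone median between -0.18 and -0.016, while the crosses stay near 0 except with median centring, where they lie at -0.086.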

How the data were processed

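Hippocampal RNA of 8 mice was measured on 1 Agilent array each (62976 features, 4 arrays per group). Per the labels' protocols 200 ng of RNA was labelled with Cy3. Per the file headers, the spots were read with Feature Extraction 12.0.3.1, whose processed signal intensity has the background subtracted and is not scaled between arrays. Flags in the deposited files mark outlier spots and spots well above background. A z score of log signal within each array fills the authors' deposited value table (recomputed within 0.005), which served for counts and signs. Its column medians were -0.21 to -0.17.

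Log2 of the processed signal minus the array's 75th percentile was the value used. Outlier spots were left out and spots of a probe averaged. RefSeq accessions in the GRCm38.p6 gene table tied 28331 of 55681 non-control probes to 1 gene each, 21368 genes in all. The probe with the highest mean stood for its gene. The 16620 genes tested had a probe well above background on 4 or more of the 8 arrays and a value on 6 or more. Precision is limited by 4 arrays per group and by signal over background: 59.7% to 69.0% of probes were well above it on Hydroxyurea arrays and 62.1% to 76.7% on Control arrays, and none was saturated.

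The treatment comparison used limma 3.58.1 (lmFit, eBayes) in R 4.3.3. Its two-sided p-values were adjusted over all genes by Benjamini-Hochberg, with a threshold of 0.05. Age was compared in a fit of 3 group means. The 9 genes with exact permutation tests were Slc17a7, Syn1, Syp, Syt1, Snap25, Stx1a, Vamp2, Bsn and Dnm1. Values in every mouse are given for these, for Slc17a6 and Syt2, and for the genes with the smallest p in each class. The other presynaptic genes and the age comparison name the 3 with the smallest p in each direction. Pvalb, Tnnt1, Rora, Gpr151, Slc32a1 and Cplx1 by mouse were added after their values were seen. The fit was tested on simulated data. The members and lists were chosen with earlier results of these data known. Numbers shared between the groups did not pair the mice, with correlations of deviations from -0.21 to 0.20. Alternatives covered scaling, background, filters, probe rules, covariates, weights, the value table and left-out arrays. Promoter windows are from RefSeq. The RE1 consensus used was set after a longer, stricter form had matched Syn1 alone.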

Additional observations from a re-analysis of the deposited data

Results flagged for a closer look

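In 5 of 100 groups of 4 mice examined, 1 mouse lay far from the other 3 by Dixon's test, and chance gives about 1 in 20. Vamp1, a vesicle SNARE, measured 3.23 in Hydroxyurea 3, against 2.45 to 2.57 in the other Hydroxyurea mice. Hydroxyurea 4 was the low mouse for 3 genes. Nsf, the ATPase that takes SNARE complexes apart, measured 5.54 there, against 5.88 to 5.93 in the others of its group. Bsn, bassoon, measured 3.70 there, against 3.93 to 3.97. Erc2, a scaffold of the active zone, measured 4.46 there, against 4.61 to 4.62. Unc13a, the gene of the priming factor Munc13-1, measured -2.12 in Control 3, against -1.82 to -1.79 in the other Control mice. Leaving out any of these arrays called none of the 45 genes.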

How the results depend on the processing

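In all 22 other settings, 0 genes and 0 of the 45 presynaptic genes passed an adjusted p of 0.05. Of the 45 genes, 22 to 35 lay above 0 (27 to 32 when leaving out an array), with the fewest under median centring and the most in the value table. At an unadjusted p below 0.05, 586 genes were higher and 1057 lower as reported, against 1228 and 2024 with array weights (11 and 3 of the 45), 197 and 1934 with median centring (0 and 3), and 874 and 1647 without Control 1 (7 and 2). They were 1508 and 975 with no filter, 919 and 1096 in the value table (10 and 2 of the 45), 493 and 679 with age as a covariate, 460 and 644 in 19-week mice alone, and 485 and 625 without Control 4. The 2 groups' shared replicate numbers as a replicate block gave 564 and 754 (2 and 2 of the 45) and changed no call. Without Control 1 and Hydroxyurea 2 together, a setting added after seeing the data, 905 were higher and 1422 lower (8 and 1 of the 45). The endocytosis median moved to -0.084 with quantile scaling, -0.109 with median centring and -0.089 with normexp, and lay at -0.066 to -0.0040 leaving out an array, while 4 of 4 endocytosis and 5 of 9 active zone genes were above 0 in z scores. Dnm1 reversed to -0.0856 with quantile scaling, -0.0619 with median centring, -0.0343 with age as a covariate and in 19-week mice alone, and -0.0098 without Control 1 and Hydroxyurea 2, with -0.0558 to 0.078 leaving out an array. Syt2 reversed to 0.0952 with normexp, 0.106 with age as a covariate and in 19-week mice alone, 0.248 with array weights and 0.349 without Control 1 and Hydroxyurea 2, with -0.376 to 0.231 leaving out an array. With normexp Sv2c reversed to 0.0193, Rims3 to 0.097 and its age difference to 0.0701. In z scores Pclo reversed to 0.0025, Amph to 0.020 and Synj1 to 0.0275. Leaving out an array also moved values without turning them: Syn1 0.065 to 0.14, Syt1 0.031 to 0.16, Vamp2 0.080 to 0.20, Bsn 0.064 to 0.16, Sv2a 0.10 to 0.21, Pclo -0.18 to -0.089, Amph -0.18 to -0.063 and Synj1 -0.12 to -0.043. The age comparison called 0 to 7 genes leaving out an array, 1 without Hydroxyurea 3 and 7 without Hydroxyurea 4, where 1 mouse of 19 weeks remained and was assumed to vary like the rest, and none of the 45. The causes were not tested.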
